A study of Mus musculus with 4 samples.

Results

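The genes described here are 9 targets of the transcription factor p53, namely Cdkn1a, Mdm2, Zmat3, Phlda3, Ccng1, Sesn2, Trp53inp1, Bbc3 and Bax. They were chosen by name, and all 9 were found among the 32285 genes of both expression tables. They were followed in nuclei from tumours of CT26, a colon cancer line of BALB/c mice, injected into the right flank and collected on day 14. The injected cells had either intact Sun1 (Sun1_WT) or a knockout of it (Sun1_KO). The Sun1 protein spans the inner nuclear membrane and helps to tie the nucleus to the cytoskeleton. The host mice were BALB/c in both groups, so immune and other host cells of both tumours had an intact Sun1. The age of the mice, the number of tumours behind a library, whether the knockout line was 1 clone and which piece of Sun1 was deleted were not stated in the labels.

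p53 is a transcription factor that accumulates when DNA is damaged or growth is disturbed, and it binds DNA as a tetramer at a pair of adjacent half-sites. Its targets halt the cell cycle, repair damage, alter metabolism or start apoptosis, and a few of them turn p53 itself down. The response is often lost in tumours by mutation of p53 or by loss of Cdkn2a, whose product blocks Mdm2, the ligase that marks p53 for destruction.

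Each genotype gave 1 library of nuclear RNA and 1 of open chromatin from the same nuclei, 4 libraries in all, and with 1 library per genotype no difference below carries a test. Intervals in parentheses are 95% intervals that cover counting error only, and every log2 ratio between genotypes is Sun1_KO over Sun1_WT. Tumour nuclei were gated on the summed level of 10 tumour markers such as Hmga2 and Igf2bp3 and host nuclei on markers of their class, which left 2557 Sun1_WT and 1324 Sun1_KO tumour nuclei, with 332 and 309 macrophage, 91 and 89 NK cell and 57 and 90 T cell nuclei. The median depth of tumour nuclei was 16457 and 16533.5 UMIs (unique molecular identifiers, each a counted molecule of RNA), and that of macrophage nuclei was 4734.5 and 4651. The macrophage markers summed to 66.1 and 89.2 CPM (counts per 1000000 UMIs of the gated nuclei, mitochondrial genes left out) in tumour nuclei, against 14748 and 10024 CPM in macrophage nuclei. Markers of NK and T cells summed to between 2.92 and 12.5 CPM in tumour nuclei, endothelial markers to 28.7 and 24.9 CPM, and fibroblast markers to 734.9 and 500.3 CPM. Xist, which the gates did not use, stood at 5.69 and 15.8 CPM in tumour nuclei and at 1909 and 1733 CPM in macrophage nuclei. The mitochondrial share of the RNA was higher in Sun1_KO, at 11.3% against 6.93% in tumour nuclei and 9.30% against 5.81% in macrophage nuclei. Its part in the ratios below was not tested. Sun1 RNA itself stood at 104 CPM in tumour nuclei of Sun1_WT and 63.99 CPM in those of Sun1_KO, and with the deleted piece not stated this level does not check the label. The libraries of RNA shared 12 barcodes between the genotypes.

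Start regions of 7 of the 9 genes, in 10 windows of 250 bases before to 50 bases after a start, were taken from RefSeq (GRCm38.p6, the assembly of mm10) and searched on both strands for the p53 half-site. Zmat3 and Trp53inp1 had no window. Sequence outside the windows, such as introns, was not searched, so sites there would be missed. A half-site was present in 4 of the 10 windows, against 8.36% of the 32851 windows of all genes. Pairs of adjacent half-sites were counted with at most 1 mismatch over the pair. The central CWWG (W is A or T) of both half-sites had to be intact. By that rule a pair was present in 1 window, that of the upstream start of Cdkn1a, and in 0.0548% of all windows. The 250 bases before this start, on the plus strand at chr17:29090729-29090978, are shown because an accessible region whose peaks differed between the libraries lies over them, and the capitals mark the pair, whose first base lies 51 bases before the start. A further half-site, whose first base lies 73 bases before the start, is not marked.

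Cdkn1a: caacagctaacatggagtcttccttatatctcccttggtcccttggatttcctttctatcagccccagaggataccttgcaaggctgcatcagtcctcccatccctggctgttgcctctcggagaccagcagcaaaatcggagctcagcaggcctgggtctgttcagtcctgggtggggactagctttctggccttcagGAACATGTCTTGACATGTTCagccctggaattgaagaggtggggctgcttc

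The half-sites without a mismatch in Mdm2, Ccng1 and Bax are shown for comparison with that pair, in 60 bases on the minus strand at chr10:117710910-117710969, chr11:40755437-40755496 and chr7:45467065-45467124. Their first bases lay 186, 185 and 201 bases before the gene start, and the capitals mark the half-site. The 10 bases directly before the capitals of Ccng1 differ from a half-site at 1 base, in the central CWWG. Because of that base this adjacent pair was not counted.

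Mdm2: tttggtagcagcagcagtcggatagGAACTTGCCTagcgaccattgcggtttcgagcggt

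Ccng1: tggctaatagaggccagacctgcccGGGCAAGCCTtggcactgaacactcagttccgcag

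Bax: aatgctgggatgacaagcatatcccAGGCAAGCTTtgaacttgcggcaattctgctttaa

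These letters describe the windows only, and a match does not show that p53 was bound there.

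In tumour nuclei the 9 genes did not move as a block. Mdm2, Zmat3, Ccng1 and Sesn2 were at least 1.5-fold higher in Sun1_KO, Phlda3 was at least 1.5-fold lower, and Trp53inp1, Cdkn1a, Bbc3 and Bax lay within 1.5-fold. Of the 12984 genes measured in tumour nuclei (at least 100 UMIs summed over both libraries), 11.7% were at least 1.5-fold higher in Sun1_KO and 9.43% at least 1.5-fold lower. The median log2 ratio was 0.57 over the 9 genes and 0.14 over all measured genes. The counts of members past 1.5-fold depend on scaling, since with TMM factors 2 of the 9, Zmat3 and Ccng1, were higher, and over all measured genes 691 were higher and 2232 lower, against 1522 and 1225.

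Mdm2 and Ccng1, which feed back on p53, were among the higher genes. Mdm2, the ligase that marks p53 for destruction and is itself induced by p53, stood at 117 CPM (114 to 120) from 5162 UMIs in Sun1_WT and 185 CPM (180 to 191) from 4323 UMIs in Sun1_KO. Its log2 ratio was 0.66 (0.61 to 0.72), a 1.58-fold higher level. Ccng1, cyclin G1, which recruits a phosphatase to Mdm2, stood at 16.4 CPM (15.2 to 17.6) from 723 UMIs in Sun1_WT and 29.3 CPM (27.1 to 31.5) from 682 UMIs in Sun1_KO, with a log2 ratio of 0.84 (0.68 to 0.99). The intervals of the levels did not overlap for either gene. At least 1 Mdm2 UMI was found in 73.8% (72.0 to 75.5) of Sun1_WT and 83.0% (80.9 to 85.0) of Sun1_KO tumour nuclei, and at least 1 Ccng1 UMI in 21.6% (20.04 to 23.3) and 34.1% (31.5 to 36.7). After thinning each nucleus to 2000 UMIs, which left out 36 Sun1_WT and 28 Sun1_KO nuclei, the shares were 18.8% and 28.7% for Mdm2, and 3.01% (2.38 to 3.76) and 4.48% (3.42 to 5.75) for Ccng1. The thinned intervals of Ccng1 overlapped.

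Zmat3, which encodes a zinc-finger protein that binds RNA and regulates splicing, had, with Ccng1, the highest ratio of the 9. It stood at 43.4 CPM (41.4 to 45.3) from 1912 UMIs in Sun1_WT and 77.6 CPM (74.1 to 81.2) from 1809 UMIs in Sun1_KO, with a log2 ratio of 0.84 (0.75 to 0.93), and 41.5% against 59.3% of tumour nuclei held at least 1 UMI. It is the only one of the 9 whose annotated span overlaps another gene, the noncoding 4930429B21Rik, and the labels do not say whether the counting used the strand. Sesn2, sestrin 2, a stress-induced brake on the growth kinase mTORC1, stood at 16.5 CPM (15.3 to 17.7) from 727 UMIs and 26.7 CPM (24.6 to 28.9) from 622 UMIs, with a log2 ratio of 0.69 (0.54 to 0.85). Its ratio was 0.05 (-0.45 to 0.52) under a stricter tumour gate of 465 and 217 nuclei and 0.22 (-0.48 to 0.86) in the 371 and 138 nuclei with no UMI of 13 G2/M genes. The Sesn2 difference was thus within counting error in those subsets, with the same sign under all 12 alternatives computed for it.

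Trp53inp1, which encodes a stress protein acting in autophagy and p53-dependent death, stood at 7.41 CPM (6.63 to 8.26) from 327 UMIs in Sun1_WT and 11.0 CPM (9.68 to 12.4) from 256 UMIs in Sun1_KO, with a log2 ratio of 0.57 (0.32 to 0.81). It was higher in Sun1_KO by just under 1.5-fold, and the ratio was 0.23 (-0.53 to 0.92) under the stricter gate and 0.06 (-0.75 to 0.78) in nuclei with no G2/M UMI.

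Cdkn1a, Bax and Bbc3 went the other way or differed little. Cdkn1a, which encodes the cyclin-dependent kinase inhibitor p21, stood at 105 CPM (102 to 108) from 4647 UMIs in Sun1_WT and 88.1 CPM (84.3 to 91.9) from 2053 UMIs in Sun1_KO, with a log2 ratio of -0.26 (-0.33 to -0.18). Bax, the pore-forming protein of mitochondrial apoptosis, stood at 84.8 CPM (82.1 to 87.6) from 3740 UMIs and 67.7 CPM (64.4 to 71.1) from 1579 UMIs, with a log2 ratio of -0.32 (-0.41 to -0.24). Over all tumour nuclei both levels were lower in Sun1_KO by more than counting error and by less than 1.5-fold. In nuclei with no G2/M UMI both ratios were within counting error, at -0.06 (-0.39 to 0.26) for Cdkn1a and -0.04 (-0.39 to 0.30) for Bax, as they were after thinning to 2000 UMIs. Under the stricter tumour gate the ratio of Bax was 0.14 (-0.09 to 0.36). Bbc3, which encodes the BH3-only death protein PUMA, stood at 18.7 CPM (17.4 to 20.003) from 824 UMIs and 17.1 CPM (15.5 to 18.9) from 399 UMIs, and its ratio of -0.13 (-0.30 to 0.05) was within counting error, whereas with TMM factors it was -0.35 (-0.53 to -0.18).

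Phlda3, a repressor of the survival kinase Akt, was the only 1 of the 9 at least 1.5-fold lower. It stood at 83.9 CPM (81.3 to 86.7) from 3702 UMIs in Sun1_WT and 52.6 CPM (49.7 to 55.6) from 1226 UMIs in Sun1_KO, with a log2 ratio of -0.67 (-0.77 to -0.58). At least 1 UMI was found in 65.7% (63.8 to 67.5) and 50.9% (48.2 to 53.6) of tumour nuclei, and after thinning in 13.2% (11.9 to 14.6) and 8.33% (6.89 to 9.97). The direction of Phlda3 was thus opposite to that of Mdm2 in the same nuclei.

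**Figure D1:**
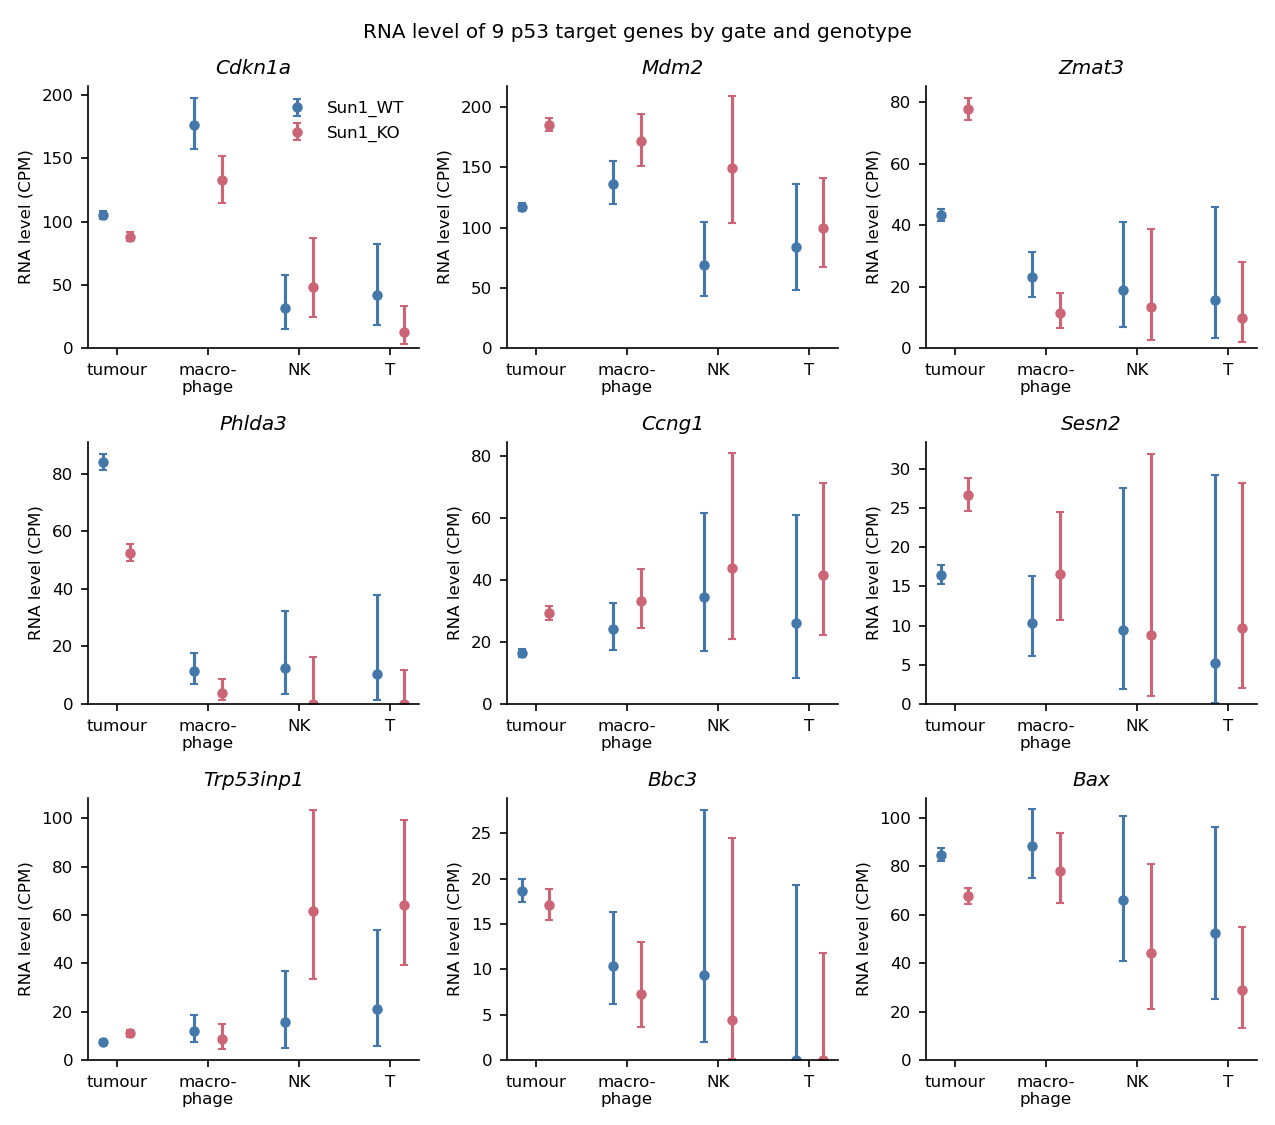
RNA level in CPM (y axis) of each gene in tumour, macrophage, NK cell and T cell nuclei (x axis) of Sun1_WT (blue) and Sun1_KO (red), with 1 library per genotype and 95% counting intervals as bars. In tumour nuclei Mdm2 stands at 117 and 185 CPM and Phlda3 at 83.9 and 52.6 CPM, while the intervals of NK and T cell nuclei are wide.

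The authors' deposited table of RNA fold changes, in which a positive value means higher in Sun1_KO (read from Ift81, at 3.20 there and at 41.3 and 289 CPM in the counts), listed the same 5 members as the highest of the 9. In the authors' deposited table the log2 fold changes were 1.25 for Zmat3, 1.13 for Mdm2, 0.95 for Ccng1, 0.86 for Sesn2, 0.80 for Trp53inp1 and -0.23 for Phlda3. For Bbc3, Cdkn1a and Bax the authors' deposited table listed 0.40, 0.18 and 0.08, opposite in sign to the ratios above. The median of the authors' deposited table was 0.59 over its 10156 genes. Against that median, Zmat3 lay at percentile 99.2 of the authors' deposited table, Mdm2 at 98.4, Cdkn1a at 12.8, Bax at 9.24 and Phlda3 at 2.99. Which nuclei entered that table was not stated.

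Levels in host nuclei, whose Sun1 was not edited, were measured with fewer UMIs. In macrophage nuclei 3 of the 9 genes reached 100 UMIs, and 0 of these 3 were past 1.5-fold, against 5.61% higher and 4.73% lower among the 5851 genes measured there. Cdkn1a stood at 177 CPM (157 to 197) from 307 UMIs in Sun1_WT and 132 CPM (115 to 152) from 200 UMIs in Sun1_KO, with a log2 ratio of -0.41 (-0.68 to -0.15). Mdm2 stood at 136 CPM (119 to 155) from 237 UMIs and 172 CPM (151 to 194) from 259 UMIs, with a log2 ratio of 0.33 (0.07 to 0.59). Bax stood at 88.6 and 78.2 CPM, and its ratio of -0.18 (-0.54 to 0.18) was within counting error. The signs of these 3 ratios, that of Bax within counting error, were those seen in tumour nuclei, and the cause was not tested.

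Zmat3 differed in sign between the cell classes. In macrophage nuclei it had 40 UMIs (23.0 CPM, 16.4 to 31.3) in Sun1_WT and 17 UMIs (11.3 CPM, 6.56 to 18.0) in Sun1_KO, a log2 ratio of -1.01 (-1.94 to -0.18), against 0.84 in tumour nuclei. When macrophages were taken from clusters in place of the gate, the ratio was -0.51. Phlda3 had 20 and 6 UMIs in macrophage nuclei, a log2 ratio of -1.45 (-3.14 to -0.16), which was on the same side as in tumour nuclei. The intervals of Ccng1, Sesn2, Trp53inp1 and Bbc3 in macrophage nuclei all included 0.

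Levels of several members also differed between cell classes of 1 library. In Sun1_WT, Phlda3 stood at 11.5 CPM in macrophage and 83.9 CPM in tumour nuclei, a log2 ratio of -2.83 (-3.58 to -2.24), and in Sun1_KO it had 0 UMIs among 227184 in NK cell and 311659 in T cell nuclei, which allows up to 3 UMIs in each. Cdkn1a was higher in macrophage than in tumour nuclei, by 0.75 (0.57 to 0.91) on the log2 scale in Sun1_WT and by 0.59 (0.37 to 0.80) in Sun1_KO. Trp53inp1 was higher in lymphocyte than in tumour nuclei of Sun1_KO, at 61.6 CPM (33.7 to 103) from 14 UMIs in NK cell and 64.2 CPM (39.2 to 99.1) from 20 UMIs in T cell nuclei of Sun1_KO, against 11.0 CPM in tumour nuclei. In Sun1_WT the same nuclei held 15.7 CPM (5.10 to 36.6) from 5 UMIs and 20.9 CPM (5.71 to 53.6) from 4 UMIs of Trp53inp1, and the log2 ratios between genotypes were 1.89 (0.42 to 3.80) and 1.48 (0.04 to 3.62). Mdm2 in NK cell nuclei had 22 and 34 UMIs, a log2 ratio of 1.10 (0.30 to 1.96). With so few UMIs these lymphocyte values give a direction and little about size. Bbc3 had no UMI in T cell nuclei of either genotype, which allows up to 3 UMIs in each. None of the 9 genes reached 100 UMIs in either lymphocyte class, so 0 were counted as past 1.5-fold, where 10.9% of measured genes were higher and 14.2% lower in NK cell nuclei and 7.87% and 8.42% in T cell nuclei.

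The other genes of the pathway were taken from a list of 40 further p53 targets, of which 39 were in the tables and 34 were measured in tumour nuclei. There, 7 were at least 1.5-fold higher in Sun1_KO and 2 lower, where 11.7% of all genes were higher and 9.43% lower. Of the 34 ratios 30 were above 0, and the median log2 ratio was 0.30, against 0.14 for all genes. With TMM factors 3 of the 34 were higher, where 691 of 12984 genes were, and the median was 0.08, against -0.08 for all genes. Psrc1, a spindle-associated gene, stood at 21.5 and 45.8 CPM, a log2 ratio of 1.09 (0.96 to 1.22), and Pidd1, the scaffold of a caspase-2 complex, at 2.90 and 5.88 CPM, a log2 ratio of 1.02 (0.66 to 1.38). Eda2r, a receptor of the TNF receptor family, stood at 27.5 and 51.7 CPM, a log2 ratio of 0.91 (0.79 to 1.03), and Dglucy, a mitochondrial enzyme gene, at 29.7 and 49.97 CPM, a log2 ratio of 0.75 (0.64 to 0.87). The lower genes were Siva1, a proapoptotic gene, at 67.1 and 36.4 CPM with a log2 ratio of -0.88 (-0.99 to -0.77), and Crip2, a LIM-domain gene, at 39.9 and 23.6 CPM with a log2 ratio of -0.75 (-0.89 to -0.62). The list thus held genes past 1.5-fold on both sides, as did the 9 genes and all measured genes. In macrophage nuclei 11 of the list were measured, 1 was higher (Dram1) and 0 were lower. Among all genes measured there 5.61% were higher and 4.73% lower. The median of the 11 was -0.19, against 0.08 for all genes there.

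RNA of p53 itself was lower in tumour nuclei of Sun1_KO. Trp53 stood at 74.4 CPM from 3282 UMIs in Sun1_WT and 59.3 CPM from 1382 UMIs in Sun1_KO, which gave a log2 ratio of -0.33 (-0.42 to -0.24), and Mdm4, the partner of Mdm2 that masks p53, stood at 155 and 219 CPM, a log2 ratio of 0.50 (0.44 to 0.55). The authors' deposited table listed Trp53 at 0.10, opposite in sign, and Mdm4 at 0.96, against its median of 0.59. In macrophage nuclei the Trp53 ratio was 0.08 (-0.41 to 0.58), within counting error. p53 is set largely at the protein level, which was not measured. Of 19 regulators of p53, 16 were measured, 1 was at least 1.5-fold higher (Trp53bp1, at 0.63), 0 were lower and the median was 0.34, where 11.7% of all genes were higher and the median gene was at 0.14. With TMM factors 0 of the 16 were higher and the median was 0.12. Cdkn2a had 6 UMIs in the Sun1_WT and 0 in the Sun1_KO tumour nuclei. These counts cover the whole gene and do not separate the product that blocks Mdm2 from p16.

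The ratios moved with gene length, in tumour and in macrophage nuclei. In tumour nuclei the median log2 ratio was -0.23 for genes under 5 kb, -0.06 from 5 to 10 kb, 0.08 from 10 to 20 kb, 0.18 from 20 to 50 kb and 0.29 above 50 kb. In macrophage nuclei the same medians were -0.22, -0.06, 0.06, 0.13 and 0.12. All 4 members above 10 kb (Mdm2, Zmat3, Sesn2 and Trp53inp1) were higher in Sun1_KO, and of the 5 shorter ones only Ccng1 was. Within their own length bin, Zmat3 lay at percentile 96.7 of the ratios, Ccng1 at 95.8, Sesn2 at 93.5, Mdm2 at 93.0 and Trp53inp1 at 89.2. Bbc3 lay at percentile 43.97, Cdkn1a at 32.7, Bax at 27.4 and Phlda3 at 17.0. The 5 higher members thus also stood high among genes of like length, and Phlda3, the lowest of the 9, stood lower among all genes (percentile 7.52) than in its bin. Lengths were available for 94.1% of the measured genes, and the part of length in the ratios was not tested.

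**Figure D2:**
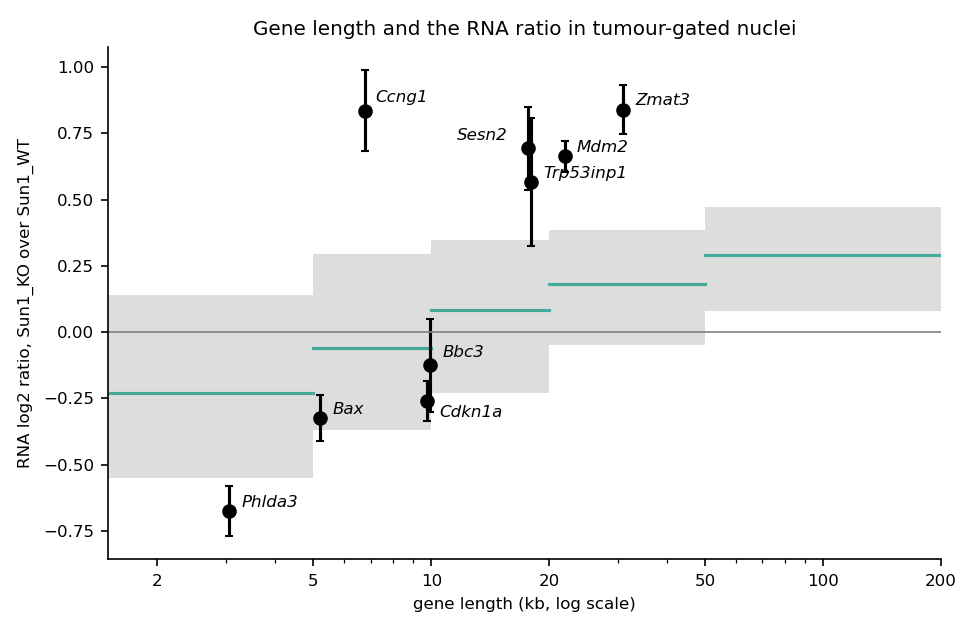
Gene length in kb (x axis, log scale) against the RNA log2 ratio of Sun1_KO over Sun1_WT in tumour nuclei (y axis), with points and 95% counting intervals for the 9 genes and, for all measured genes in 5 length bins, the median (green line) and the middle quartiles (grey). The bin medians run from -0.23 to 0.29, Ccng1 lies far above the others of 5 to 10 kb, and Phlda3 lies below the grey band of genes under 5 kb.

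The differences were also compared by cell cycle, using gates on 13 G2/M genes and 18 S genes that hold none of the 9. The G2/M gate took 34.6% (32.8 to 36.5) of Sun1_WT and 40.9% (38.3 to 43.6) of Sun1_KO tumour nuclei, the S gate 13.1% and 13.5%, and 52.2% and 45.5% were in neither. Median depth differed between these groups, from 12796 and 13458 UMIs in neither gate to 23373 and 21384 in the G2/M gate, and 121 Sun1_WT and 79 Sun1_KO nuclei lay near the G2/M threshold of 1000 CPM. Nuclei past both thresholds were placed in the G2/M group. Near the S threshold lay 353 and 233 of all tumour nuclei, those of the G2/M group included. The S group itself held 336 and 179 nuclei, so its values depend on that threshold. Mdm2, Zmat3, Ccng1, Sesn2 and Trp53inp1 were higher in Sun1_KO in each of the 3 groups, and Phlda3 was lower in each, at -0.66 (-0.82 to -0.51), -0.60 (-0.85 to -0.36) and -0.69 (-0.83 to -0.55) in neither gate, S and G2/M.

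For Cdkn1a the genotype difference exceeded counting error in G2/M nuclei and not in the other groups. It stood at 132 CPM (127 to 137) in Sun1_WT and 96.8 CPM (91.4 to 102) in Sun1_KO nuclei of the G2/M gate, a log2 ratio of -0.44 (-0.54 to -0.35). In nuclei of neither gate it stood at 82.5 CPM (78.2 to 86.9) and 76.6 CPM (70.6 to 82.9), a ratio of -0.11 (-0.25 to 0.03), and in S nuclei the ratio was 0.08 (-0.15 to 0.29). The Bax ratio was -0.52 (-0.65 to -0.40) in G2/M nuclei, -0.21 (-0.36 to -0.07) in neither gate and 0.07 (-0.15 to 0.28) in S nuclei. The differences between phases were not tested. Trp53inp1 was lowest in cycling nuclei, at 12.4 CPM in neither gate, 2.13 CPM in S and 4.88 CPM in G2/M nuclei of Sun1_WT, and at 17.0, 6.58 and 8.26 CPM in Sun1_KO. In both genotypes Zmat3, Mdm2, Phlda3, Bbc3 and Bax differed from neither gate to G2/M by at most 0.34 on the log2 scale.

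**Figure D3:**
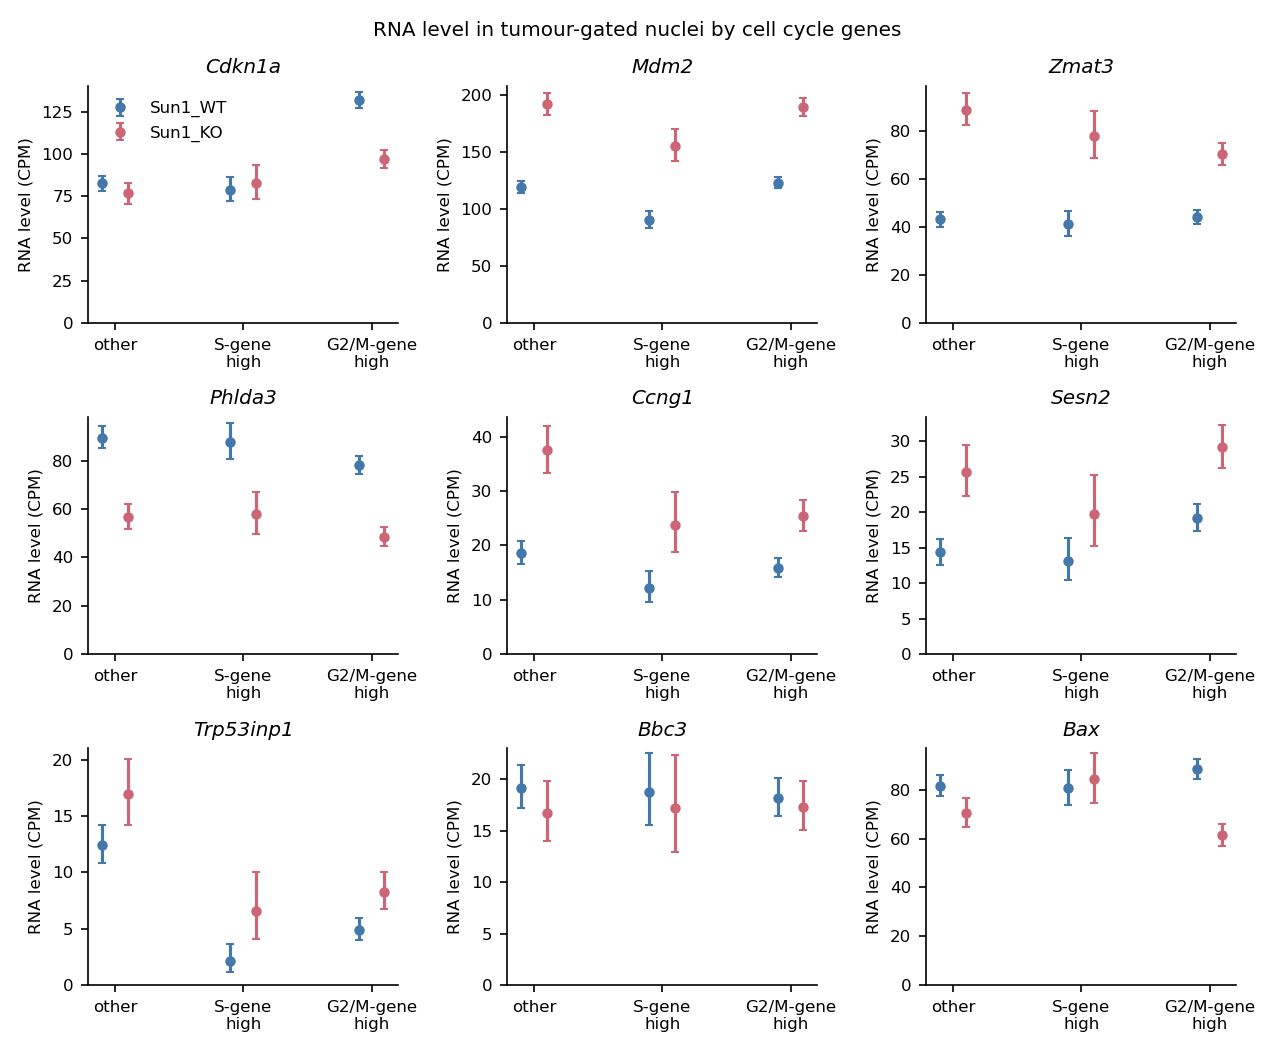
RNA level in CPM (y axis) of each gene in tumour nuclei in neither cell cycle gate (other), high in S genes or high in G2/M genes (x axis), Sun1_WT in blue and Sun1_KO in red, with 95% counting intervals. Cdkn1a reaches 132 CPM in G2/M nuclei of Sun1_WT and 96.8 CPM in those of Sun1_KO, and Trp53inp1 is lower in both cycling groups than in the other nuclei.

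Within each genotype, nuclei rich in RNA of 1 target were also rich in most others. Tumour nuclei were thinned to 10000 UMIs, which left 2087 Sun1_WT and 1113 Sun1_KO nuclei, and those with at least 3 Cdkn1a UMIs (234 and 87) were set against those with 0 (1060 and 579). In Sun1_WT, Mdm2 stood at 98.1 CPM in nuclei without Cdkn1a and at 182 CPM in those with at least 3 UMIs, a log2 ratio of 0.90 (0.72 to 1.07). In Sun1_KO the same levels were 167 and 334 CPM, a log2 ratio of 1.00 (0.79 to 1.20). Mdm2 was thus higher in Sun1_KO both with and without Cdkn1a RNA, and it differed with Cdkn1a by a like factor in each genotype.

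The log2 ratio between Cdkn1a-rich and Cdkn1a-free nuclei was 1.67 in Sun1_WT and 0.94 in Sun1_KO for Sesn2, 1.51 and 1.89 for Trp53inp1, 1.23 and 0.74 for Zmat3, and 0.86 and 0.97 for Ccng1. It was smaller for Phlda3, at 0.43 and 0.51, and for Bax, at 0.35 and 0.44. For Bbc3 it was 0.88 in Sun1_WT, and in Sun1_KO it was 0.36 (-0.48 to 1.07), within counting error. The median over all genes compared in the same way was -0.02 over 9876 genes in Sun1_WT and 0.00 over 8191 genes in Sun1_KO, and all of the 8 genes but Bbc3 in Sun1_KO had intervals above 0. Splitting nuclei by Mdm2 in place of Cdkn1a gave log2 ratios of 0.85 (0.67 to 1.04) and 0.83 (0.55 to 1.12) for Cdkn1a, while Sesn2, Trp53inp1 and Bax in Sun1_KO and Bbc3 in Sun1_WT were within counting error. These are contrasts within a library, with nuclei of all phases together.

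**Figure D4:**
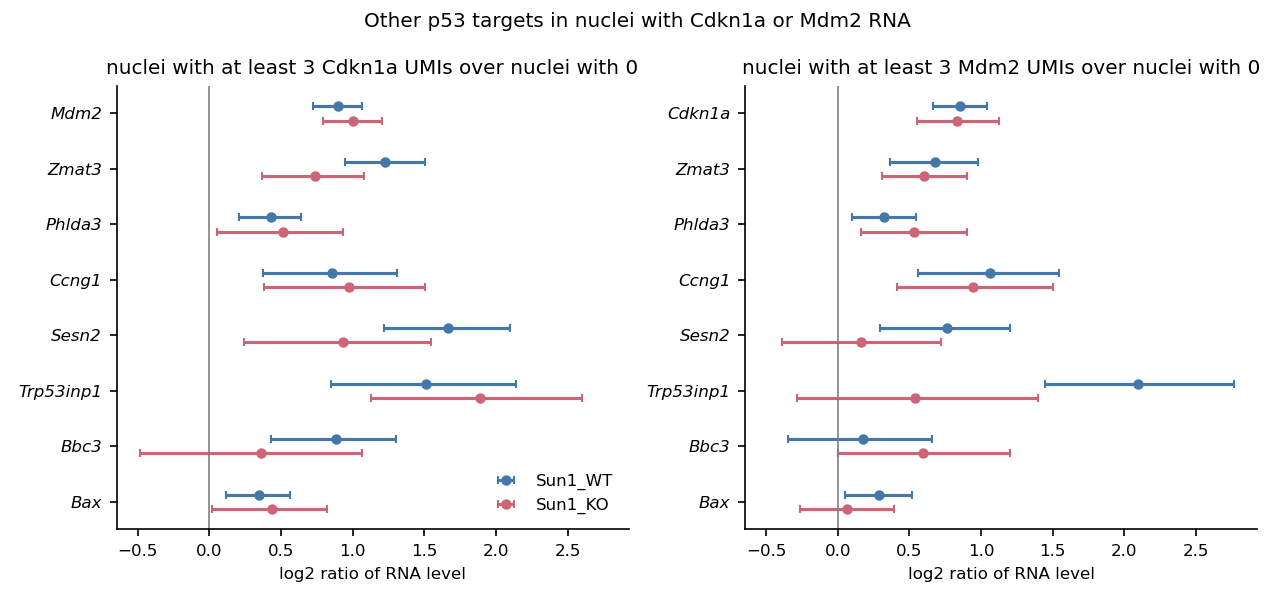
Log2 ratio of RNA level (x axis) between tumour nuclei with at least 3 UMIs and with 0 UMIs of Cdkn1a (left) or Mdm2 (right) for the other genes (y axis), each nucleus thinned to 10000 UMIs, Sun1_WT in blue and Sun1_KO in red, with 95% counting intervals. In Cdkn1a-rich nuclei Mdm2 is higher by 0.90 in Sun1_WT and 1.00 in Sun1_KO, and the Bax and Phlda3 points lie nearest 0 apart from Bbc3 of Sun1_KO.

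Across 15 groups of tumour nuclei (clusters of at least 50 nuclei, each genotype apart), levels of the 9 genes followed several patterns. Pearson's r was 0.80 for Mdm2 with Sesn2, 0.78 for Mdm2 with Zmat3, 0.77 for Cdkn1a with Bbc3 and 0.75 for Phlda3 with Bax, and it was -0.56 for Zmat3 with Phlda3 and -0.77 for Trp53inp1 with Bbc3. Cdkn1a and Bbc3 ran with the summed level of 10 integrated stress response genes, at r of 0.86 and 0.84, as did Sesn2, which was higher in Sun1_KO, at r of 0.71, and Trp53inp1 against the G2/M genes, at r of -0.76. In tumour nuclei 4 of the 9 measured stress response genes were at least 1.5-fold lower in Sun1_KO and 0 were higher, against 9.43% and 11.7% of all genes, with Asns, asparagine synthetase, at a log2 ratio of -1.04 (-1.12 to -0.95), and the part of this list in the Cdkn1a difference was not tested. Among 10110 genes, those most like a member over the 15 groups were Zfp593 and Gabpa for Cdkn1a (both with r of 0.92), Cpeb2 and Itga5 for Mdm2 (0.89 and 0.87), Zfp384 and Etv3 for Zmat3 (0.94 and 0.93), and Crip2 and Capg for Phlda3 (both 0.92). For Ccng1 they were Gskip and Tspan31 (both 0.89), for Sesn2 Nt5dc3 and Zbtb18 (both 0.93), for Trp53inp1 Bcl6 and Fbxo8 (0.94 and 0.92), for Bbc3 Snhg1 and Eprs (0.96 and 0.95), and for Bax Mrps11 and Cox5b (0.94 and 0.93). The 15 points share 2 libraries and differ in depth and in genotype, so these values describe the groups only.

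Chromatin over the genes differed far less than their RNA. Accessible regions within 1 kb of each gene, in mm10, were summed over regions found in both libraries, and 0 of the 9 loci differed by 1.5-fold in tumour nuclei, where 4.11% of 25635 gene loci were at least 1.5-fold higher and 2.12% lower. Zmat3 (chr3:32334792-32365665) stood at 37.7 CPM (of counts in shared regions) in Sun1_WT and 34.6 CPM in Sun1_KO, a log2 ratio of -0.12 (-0.18 to -0.07), whereas its RNA was higher in Sun1_KO. Mdm2 (chr10:117688875-117710758) stood at 63.1 and 64.6 CPM, a log2 ratio of 0.04 (-0.01 to 0.08), and Phlda3 (chr1:135766085-135769134) at 46.6 and 46.3 CPM, a log2 ratio of -0.01 (-0.06 to 0.04). The other loci lay between -0.06 for Trp53inp1 and 0.06 for Sesn2. The recorded counts were mostly even (75.5% and 74.98%), so they are not independent and these intervals are too narrow. In shared regions within 5 Mb on either side the ratios ran from -0.14 around Zmat3 to 0.08 around Mdm2, so the Zmat3 locus differed from its surroundings by 0.01.

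**Figure D5:**
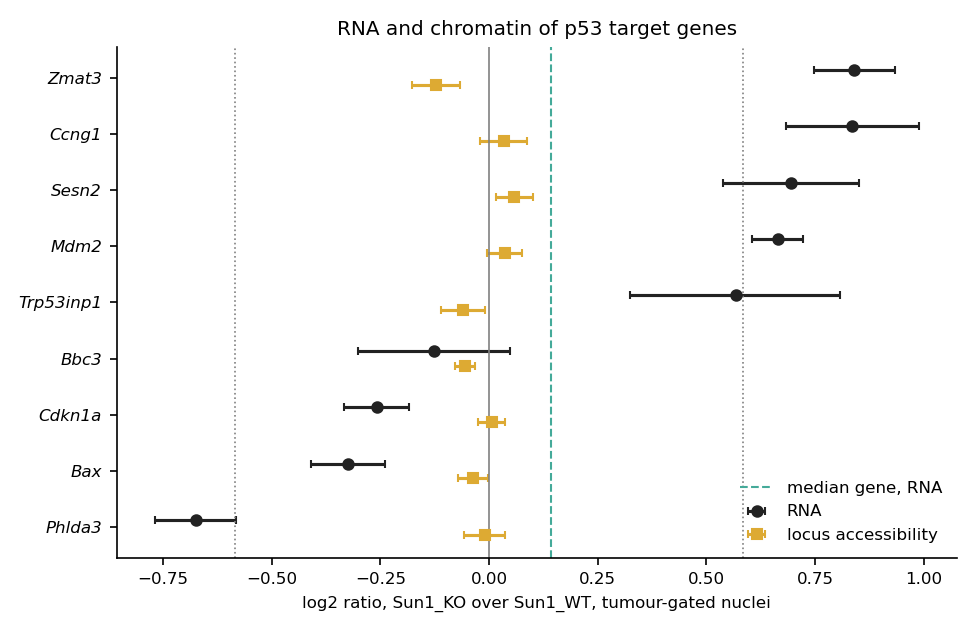
Log2 ratio of Sun1_KO over Sun1_WT (x axis) in tumour nuclei for RNA (black circles) and for accessibility of the locus (yellow squares) of each gene (y axis), with 95% counting intervals, dotted lines at 1.5-fold and a dashed line at the median gene of 0.14. RNA ratios run from -0.67 for Phlda3 to 0.84 for Zmat3, and locus ratios from -0.12 for Zmat3 to 0.06 for Sesn2.

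At Cdkn1a (chr17:29090979-29100722) the whole locus was even between the genotypes in tumour nuclei, at 106.9 and 107.3 CPM with a log2 ratio of 0.01 (-0.03 to 0.04). The merged region that holds the pair of half-sites printed above (chr17:29090612-29091924) was even too, at 3.33 CPM from 635 counts in Sun1_WT and 3.27 CPM from 413 counts in Sun1_KO, a log2 ratio of -0.02 (-0.21 to 0.16). A count was present there in 10.8% (9.65 to 12.1) of Sun1_WT and 15.6% (13.7 to 17.7) of Sun1_KO tumour nuclei. In macrophage nuclei the region stood at 9.80 CPM from 82 counts in Sun1_WT and 3.21 CPM from 25 counts in Sun1_KO, a log2 ratio of -1.59 (-2.32 to -0.95).

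These values depend on how the peaks were drawn, because each library was counted over its own peaks. In Sun1_WT the region was split into a peak over the half-site pair (chr17:29090612-29091203, 591 bases, 287 counts in tumour nuclei) and a peak after it (chr17:29091315-29091924, 609 bases, 348 counts). In Sun1_KO it held 1 peak of 692 bases (chr17:29090634-29091326, 413 counts), which overlaps the start of the later Sun1_WT peak and leaves most of it uncounted. Setting only the peaks over the pair side by side gave 1.505 and 3.27 CPM in tumour nuclei, a log2 ratio of 1.12, and 5.50 and 3.21 CPM in macrophage nuclei, a log2 ratio of -0.76. That comparison was chosen after its values were seen and covers stretches of different extent, so it gives no fold change over the same bases. A difference between the genotypes in tumour nuclei at the half-site pair could not be settled from these peaks.

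The region over the downstream Cdkn1a start (chr17:29093251-29094161) stood at 39.7 and 42.8 CPM in tumour nuclei, a log2 ratio of 0.11 (0.06 to 0.16), and the region with the most counts, inside the gene (chr17:29095010-29095875), at 63.9 and 61.3 CPM, a log2 ratio of -0.06 (-0.10 to -0.02). In macrophage nuclei the whole Cdkn1a locus stood at 145.5 and 122.4 CPM, a log2 ratio of -0.25 (-0.37 to -0.13), which was on the same side as its RNA. In these nuclei 0 of the 9 loci differed by 1.5-fold, where 1.27% of 17908 loci were higher and 1.35% lower. At the other loci, the region with the most counts in tumour nuclei stood at 40.0 and 40.6 CPM for Mdm2 (chr10:117710426-117711084), 30.9 and 29.0 CPM for Zmat3 (chr3:32365253-32366158), 40.0 and 39.5 CPM for Phlda3 (chr1:135765699-135766571) and 35.05 and 35.9 CPM for Ccng1 (chr11:40754858-40755737). It stood at 41.1 and 39.6 CPM for Sesn2 (chr4:132510130-132510950), 39.4 and 37.7 CPM for Trp53inp1 (chr4:11155880-11156772), 53.01 and 52.2 CPM for Bbc3 (chr7:16313634-16314524) and 48.5 and 46.0 CPM for Bax (chr7:45466356-45467247). None of these 8 differed by as much as 0.10 on the log2 scale. Sesn2 also had a region inside the gene (chr4:132509299-132510001) at 13.3 and 16.9 CPM, a log2 ratio of 0.35 (0.26 to 0.43), which was below 1.5-fold.

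Peaks called in only 1 library lay at 4 of the genes, all in Sun1_KO, 1 each at Cdkn1a, Mdm2, Zmat3 and Trp53inp1. Over all 147464 regions 13.9% were called only in Sun1_KO and 8.97% only in Sun1_WT, and the 4 of 27 regions at the members are near that share. The largest of them, inside Zmat3 (chr3:32363841-32364518), had 688 counts (5.45 CPM) in Sun1_KO tumour nuclei and 6 in macrophage nuclei. The Sun1_WT table has no peak at these places, so no level can be given for Sun1_WT.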

How the data were processed

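Nuclei of 4 libraries, 1 of RNA and 1 of open chromatin per genotype, came from a 10x Multiome assay. Cell Ranger, Cell Ranger ARC, FastQC, Seurat and Signac and the build mm10 are named, per the submitters' processing notes, with no versions. The authors deposited raw counts per gene and nucleus and raw counts per peak and nucleus, with peaks called for each library. The authors' deposited table, made with DESeq2's Wald test per its headers, gives log2 fold changes, a mean signal (normalized counts), a score (the Wald statistic) and p-values. Only its log2 fold changes are printed. The table's pairing of sign and genotype was read from the counts.

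Nuclei under 500 UMIs or 300 genes, or above 20% mitochondrial RNA, were removed, and the rest kept (3345 of 3455 Sun1_WT, 2172 of 2404 Sun1_KO), out of 53707675 and 35471291 UMIs. Scrublet called 0 and 2 doublets, under 0.5% of nuclei, so it did not work here and no nucleus was removed as a doublet. Tumour nuclei had tumour markers at 1000 CPM or more and host markers under 500 CPM, and host nuclei had tumour markers under 500 CPM and markers of their class at 1000 CPM or more. Fibroblast markers were not among the host markers of these gates, so the tumour gate set no limit on them. The thresholds were set after the marker distributions were seen, and 281 Sun1_WT and 333 Sun1_KO nuclei fell in no class. UMIs were summed per class and genotype with a pseudocount of 0.5 in log2 ratios, and a gene was measured from 100 UMIs. Exact 95% intervals (conditional binomial for ratios, Poisson for levels, Clopper-Pearson for shares) cover counting error only. Accessible regions are peaks merged over both libraries with an overlap of at least 1 bp, and 113803 of 147464 were shared. Clusters were made with scanpy 1.11.5 (Leiden, resolution 1), and TMM factors with edgeR 4.0.16, which was used for scaling alone. The ratio computation was tested on simulated data.

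The 9 genes, the lists and the rules were chosen with earlier results of these data known. Named are the 9 genes, Trp53, Mdm4, list genes whose interval lay wholly past 1.5-fold, the 2 genes most like each member and, for each locus, the region with the most counts. Trp53bp1, Dram1, Cdkn2a and Asns were named after their values were seen. Neutrophil, dendritic, B and endothelial nuclei, at most 15 of each per library, were left out.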

Additional observations from a re-analysis of the deposited data

Results flagged for a closer look

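Zmat3 RNA differed between genotypes in opposite directions in macrophage and tumour nuclei. The log2 ratio of Sun1_KO over Sun1_WT was -1.01 in macrophage nuclei, from 40 and 17 UMIs, and 0.84 in tumour nuclei, from 1912 and 1809 UMIs. The peaks of each library over the pair of p53 half-sites at Cdkn1a also had counts that went in opposite directions, with a log2 ratio of -0.76 in macrophage nuclei, from 46 and 25 counts, and 1.12 in tumour nuclei, from 287 and 413 counts. This peak pair was chosen after its values were seen and its members differ in extent, and over the merged region the ratios were -1.59 and -0.02, so the higher tumour value was not seen there. With 1 library per genotype, neither difference between the cell classes was tested.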

How the results depend on the processing

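No paired analysis was possible because each genotype had 1 library per assay. Over 12 alternatives the tumour RNA ratio kept its sign for 7 of the 9 genes in all 12, and for Bbc3 and Bax in 11. Bbc3 was at 0.40 when nuclei were thinned to 2000 UMIs, and Bax at 0.14 under the stricter tumour gate. Zmat3 and Ccng1 stayed past 1.5-fold in all 12, Phlda3 in 11, Mdm2 in 10, Sesn2 in 8 and Trp53inp1 in 2. Under the stricter tumour gate the median of the 9 genes was 0.14, and in nuclei with no G2/M UMI it was 0.063. Of the 8 members still measured under the stricter gate, 3 were at least 1.5-fold higher and 0 lower. There 4 of 27 further targets and 0 of 15 regulators were higher, where 647 of 9190 genes were higher and 638 lower. With TMM factors 2 of the 9 genes, 3 further targets and 0 regulators were higher, and over all genes 691 were higher and 2232 lower, against 1522 and 1225. With median-ratio size factors 2 of the 9, 4 further targets and 0 regulators were higher, where 898 of 12984 genes were higher and 1821 lower. With mitochondrial genes in the total 4 of the 9, 4 further targets and 0 regulators were higher, where 1169 genes were higher and 1504 lower. Against regions within 5 Mb the Zmat3 locus was at 0.0146, and with counts reduced to presence or absence the median over the 9 loci was -0.11 in place of -0.01. Taking 1 peak of each library over the upstream Cdkn1a start, an alternative added after the data were seen, gave 1.12 in tumour and -0.76 in macrophage nuclei, in place of -0.02 and -1.59 over the merged region. The intervals of Bbc3 left out 0 with TMM and median-ratio factors, with mitochondrial genes in the total and under a gate on Hmga2. The causes were not tested. Depth limits the lymphocyte values, where no member reached 100 UMIs.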
